A study of Phyllostachys nigra with 21 samples.

Results

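Culms of black bamboo (Phyllostachys nigra) held at 4 °C for 25 days (LT25d) were compared with culms taken before any treatment (CK). The comparison rested on 6 of the 21 RNA-seq libraries of the series, 3 from LT25d and 3 from CK. Levels are given as FPKM, the fragments per kilobase of transcript scaled to the mapped fragments of the library. Of the 42460 genes in the table, 29913 reached at least 1 FPKM in at least 3 of the 21 libraries and were tested. The plants were grown in pots in a greenhouse from rhizomes, and the culms were green and immature when the treatment began. LT25d culms came from a growth chamber at 4 °C. CK culms had seen neither chamber, so the number of days and the growth chamber changed together with the temperature, and the 3 cannot be told apart within this comparison. For this reason the values of culms kept for the same 25 days at 25 °C (RT25d), and of culms after 15 days at 4 °C (LT15d), are given beside the main result. The study calls its replicates biological, but the sources used here do not give how plants were assigned to libraries. The p-values measure only the spread between libraries of the same group, estimated over all 21 libraries. This spread may be in part technical. Genes were named by the authors from matches to proteins of other species, and positions are on numbered scaffolds of the moso bamboo (Phyllostachys edulis) genome, to which the reads were mapped.

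The culm of black bamboo turns from green to purple-black with age, and the study asked how temperature acts on the black pigment, a melanin, and on the genes behind it. A route considered for such pigments leads from tryptophan through tryptamine to serotonin, followed by oxidation. For the oxidation the study names peroxidases and polyphenol oxidases, and laccases are considered here as well. Plants kept in the cold are also known to acclimate: cells make dehydrins, which are water-binding proteins that protect membranes and enzymes, together with chaperones, soluble sugars such as raffinose and secreted proteins, some of which bind ice in cereals. The first hours of this response are carried by DREB/CBF transcription factors, which bind the dehydration-responsive element in promoters. Green tissue in the cold absorbs more light than it can use, and early light-inducible proteins, relatives of the light-harvesting proteins, bind pigments and limit the damage.

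The total count per library lay between 42779971 and 48386147 in LT25d and between 44959388 and 46696000 in CK. The 3 LT25d libraries were almost alike, with a median coefficient of variation of 2.56% over the 1791 genes that averaged more than 5000 counts. The same figure was 23.3% in CK, and 7.68% when CK replicate 1 was left out. CK replicate 1 correlated with the other 2 CK libraries at r = 0.888 and 0.905 on the log2 scale across genes, against 0.985 between those 2. TMM scaling factors were 1.14 in LT25d and lay between 0.822 and 1.02 in CK. With scaling by library size alone the median over all genes shifted to 0.28 on the log2 scale, in place of -0.05. The RNA came from culm tissue, in which fewer cells of a type and less RNA per cell cannot be told apart. Near-identical gene copies, which are common in bamboo, share reads, so a value given for one copy may hold reads from another.

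At an adjusted p of at most 0.05 and a fold change of at least 2 (edgeR quasi-likelihood test), 3395 genes (11.3% of those tested) were higher in LT25d than in CK and 5073 (17%) were lower, 28.3% in all. A fold change below is LT25d over CK on the log2 scale with its standard error after the sign ±. FPKM values carry no TMM factor, so a fold change can differ from the ratio of the FPKM printed beside it. Without CK replicate 1 the numbers were 4144 (13.9%) higher and 5537 (18.5%) lower, 32.4% in all, of which 3049 and 4537 were among the genes called with all 6 libraries. The share of higher genes among those called was 40.1%, but 61.3% with scaling by library size, where 5625 were higher and 3551 lower. Changes of at least 16-fold were found for 261 higher and 537 lower genes. The libraries of the 2 groups did not overlap for 3367 of the higher and 4248 of the lower genes. The share without overlap over all tested genes is not given here. The libraries did not overlap for any called gene named below unless this is said. For most named genes this was a condition of the naming rule, so it adds no support. Against RT25d, 3388 genes (11.3%) were higher and 3944 (13.2%) were lower in LT25d, 24.5% in all. Against LT15d, 5029 genes (16.8%) were higher and 4854 (16.2%) were lower in LT25d, 33% in all.

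**Figure D1:**
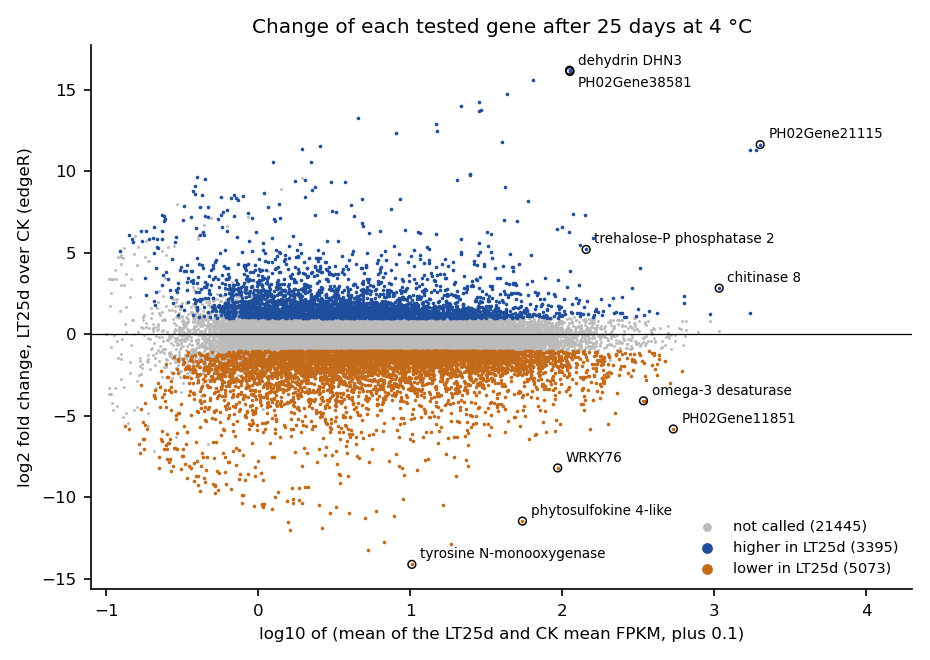
Each point is 1 of the 29913 tested genes, with its mean level over the 6 libraries on the horizontal axis (FPKM + 0.1, log10 scale) and its log2 fold change, LT25d over CK, on the vertical axis. Genes called higher (3395) and lower (5073) are coloured, and labels mark genes described in the text.

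The most abundant transcript of the cold-treated culms was nearly missing from untreated ones. PH02Gene21115 had the highest mean FPKM of all genes in LT25d and carries no description. It had 4020, 4006 and 3973 FPKM in LT25d, against 0.905, 1.29 and 0.837 FPKM in CK (log2 fold change 11.64 ± 0.63, adjusted p = 1.47e-09). It lies on scaffold 9 (bases 58851306 to 58851692), in a span of 68.3 kb with PH02Gene21116 and PH02Gene21117, which rose with it. PH02Gene21116, also without a description, had 3625, 3876 and 3775 FPKM in LT25d, against 0.643, 1.67 and 1.13 FPKM in CK (log2 fold change 11.34 ± 0.67, adjusted p = 2.89e-09). PH02Gene21117, matched to a rice protein of no stated function, had 3408, 3499 and 3384 FPKM in LT25d, against 0.712, 1.87 and 0.664 FPKM in CK (log2 fold change 11.30 ± 0.76, adjusted p = 9.43e-09). These 2 neighbours were looked up after the values of the first were known. All 3 were higher still in LT15d, at means of 6008, 9068 and 7376 FPKM, and low in RT25d, at 13.6, 24.4 and 12.4 FPKM. The fall after day 15 passed the test for PH02Gene21116 (log2 fold change -1.67, adjusted p = 0.00295) and PH02Gene21117 (log2 fold change -1.50, adjusted p = 0.0152), while PH02Gene21115 stayed just short of a fold change of 2 (log2 fold change -0.98, adjusted p = 0.039). All were far above RT25d, with log2 fold changes of 8.23, 7.30 and 8.14.

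A family of genes that match the millet protein PM01G38690, of unknown function but annotated to the extracellular region and to defense response, was all but unread in untreated culms. PH02Gene38581, on scaffold 5 (bases 42968693 to 42969650), had 221, 222 and 226 FPKM in LT25d and was at 0 in all 3 CK libraries, which made it at least 711-fold higher (adjusted p = 1.81e-07). PH02Gene44761 had 130, 131 and 122 FPKM in LT25d and was at 0 in all 3 CK libraries and was at least 463-fold higher (adjusted p = 7.64e-07). PH02Gene41470 and PH02Gene38580 were at least 259-fold and 188-fold higher. These bounds take 12 counts in a CK library as the floor, which is assumed to stand for 3 read pairs. The 4 genes lie within 352 kb of each other, a span that also holds PH02Gene38574, at 58 ± 2.45 FPKM in LT25d (mean ± SD, n = 3) and 0 in CK. Of the 10 genes with this description 9 were tested, 8 were called higher than CK, and all 8 had no read in any CK library. This family was put together after the values were seen. The ninth, PH02Gene34947, had 22.7, 21.2 and 22.5 FPKM in LT25d, against 12.1, 0.271 and 0.494 FPKM in CK and did not pass (log2 fold change 2.24 ± 0.93, adjusted p = 0.0503). All 9 tested members were higher than in RT25d, and 7 were higher in LT25d than in LT15d, whereas none of the 3 scaffold 9 genes was called higher than at day 15. For PH02Gene38581 the LT15d mean was 60.8 ± 1.23 FPKM, against 223 ± 2.5 FPKM in LT25d, and the RT25d mean was 0.103 ± 0.0917 FPKM.

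Of 16 tested cold and dehydration proteins 6 were higher and 2 lower (9 and 1 without CK replicate 2, 10 and 2 with scaling by library size), with a median log2 fold change of 1.44. PH02Gene07646, matched to dehydrin DHN3, had 227, 219 and 226 FPKM in LT25d and was at 0 in all 3 CK libraries, at least 675-fold higher (adjusted p = 1.12e-08). PH02Gene07648, a DHN1-like dehydrin 104 kb from it on scaffold 13, had 49.5, 46.9 and 51.9 FPKM in LT25d, against 0.0578, 0.0541 and 0 FPKM in CK (log2 fold change 9.78 ± 0.54, adjusted p = 1.6e-09). Both were absent or nearly so in every CK library and steady among the LT25d libraries. Another dehydrin on scaffold 2, PH02Gene11487, chosen after its values were seen, had 263, 256 and 251 FPKM in LT25d, against 4.48, 4.82 and 5.34 FPKM in CK (log2 fold change 5.45 ± 0.60, adjusted p = 1.42e-06). PH02Gene40576, an 11 kDa late embryogenesis abundant protein, a kind of protein that accumulates in drying seeds, had 21.3, 21.1 and 25.7 FPKM in LT25d, against 0, 0.47 and 0.234 FPKM in CK (log2 fold change 6.21 ± 0.73, adjusted p = 3.09e-06). Among the falls was PH02Gene23248, a late embryogenesis abundant protein of the Lea5 type, which had 20.5, 20.7 and 21.7 FPKM in LT25d, against 48.7, 58.1 and 54.2 FPKM in CK (log2 fold change -1.63 ± 0.30, adjusted p = 0.000219). Abundant in both groups, the wheat cold acclimation protein homologue WCOR410c (PH02Gene13412, chosen after its values were seen), had 543, 536 and 545 FPKM in LT25d, against 332, 1070 and 700 FPKM in CK (log2 fold change -0.68 ± 0.34, adjusted p = 0.104). Its libraries overlapped and it was not called.

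The reading of this list depended on the culms it was set against. Against RT25d, 14 of the 16 members were higher and the other 2 did not pass, and against LT15d 8 were lower and the other 8 did not pass. WCOR410c, not called against CK, was higher in LT25d than in RT25d (log2 fold change 2.65, adjusted p = 1.7e-05), where it averaged 88.9 ± 10.1 FPKM. PH02Gene11487 was lower in LT25d than in LT15d, where it averaged 1256 ± 17.8 FPKM (log2 fold change -2.69, adjusted p = 0.000274), while PH02Gene07646 was not called different between the 2 times (log2 fold change 0.24, adjusted p = 0.635). Of the factors that bind promoters of such genes, fewer rose than fell: of 16 DREB/CBF genes 1 was higher and 9 were lower than CK (3 higher without CK replicate 1). PH02Gene23182, of the DREB1 class, which acts in the first response to cold, had 9.07, 9.92 and 8.85 FPKM in LT25d, against 39.5, 66 and 44.9 FPKM in CK (log2 fold change -2.72 ± 0.64, adjusted p = 0.00192). It was nevertheless above RT25d (log2 fold change 4.83, adjusted p = 8.3e-05). PH02Gene15563, a DREB2, a class linked to drought and heat, had 3.53, 3.63 and 3.98 FPKM in LT25d, against 22.9, 42.4 and 24.1 FPKM in CK (log2 fold change -3.29 ± 0.41, adjusted p = 5.75e-06). The single higher member was PH02Gene34911, also of the DREB2 class, which had 18.4, 15.8 and 13.6 FPKM in LT25d, against 2.79, 5.48 and 3.54 FPKM in CK (log2 fold change 1.72 ± 0.30, adjusted p = 0.000161).

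All 5 tested early light-inducible proteins were higher, with a median log2 fold change of 7.02, a list drawn up after the values were seen. The genes PH02Gene44634, PH02Gene44635 and PH02Gene44636 stand within 40.3 kb on scaffold 10. PH02Gene44635 had 282, 276 and 280 FPKM in LT25d, against 0.431, 2.3 and 1.55 FPKM in CK (log2 fold change 7.29 ± 0.55, adjusted p = 3.56e-08). PH02Gene44636 had 231, 233 and 231 FPKM in LT25d, against 0.51, 2.09 and 0.734 FPKM in CK (log2 fold change 7.38 ± 0.62, adjusted p = 9.55e-08). PH02Gene44634 had 176, 182 and 188 FPKM in LT25d, against 0.618, 3.08 and 1.25 FPKM in CK (log2 fold change 6.46 ± 0.60, adjusted p = 2.79e-07). No CK library came near the LT25d values. In LT15d the 3 genes were higher again, at 1201, 766 and 656 FPKM in the order of their numbers, and all 5 members were lower in LT25d than in LT15d. All 5 were also higher than in RT25d.

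**Figure D2:**
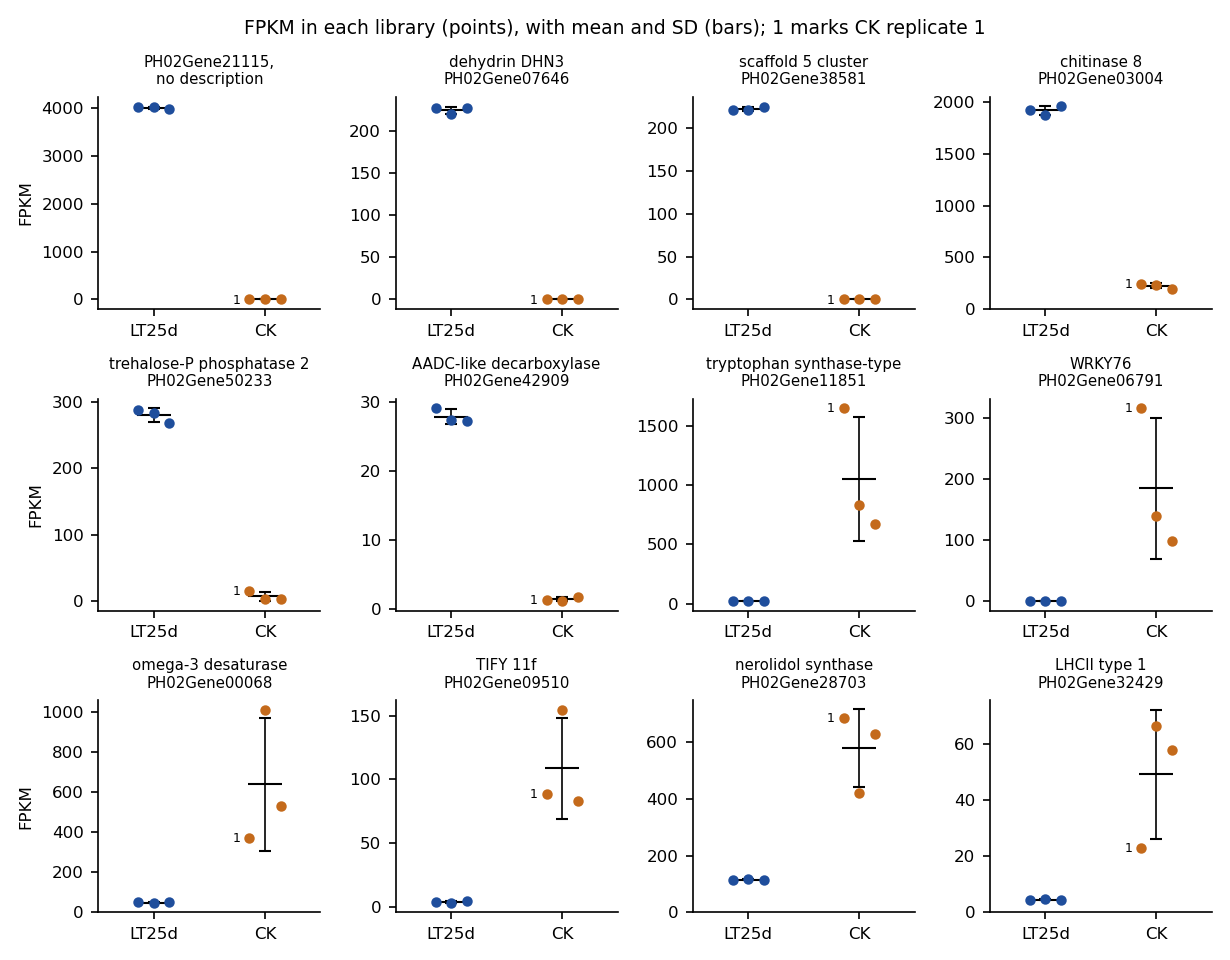
FPKM of 12 genes in each library, with the 3 LT25d libraries left and the 3 CK libraries right in every panel. Bars give mean ± SD, the digit 1 marks CK replicate 1, and the LT25d points lie close together while those of CK spread more.

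Of 102 heat shock proteins and heat stress transcription factors 33 were higher and 11 lower than CK. Among the 24 small heat shock proteins, ATP-independent chaperones that hold unfolded proteins, 17 were higher and 1 was lower, with a median of 1.93. The 27 genes of the 70 kDa class, which refold proteins with ATP, split into 4 higher and 4 lower (2 higher in 4 of the 6 leave-one-out fits). Both of these lists were drawn up after the values were seen. PH02Gene22221, a 16.9 kDa class I protein, had 50.9, 47.8 and 48.9 FPKM in LT25d, against 0.115, 0 and 0 FPKM in CK (log2 fold change 9.84 ± 1.20, adjusted p = 4.31e-06). Its neighbours PH02Gene22220 and PH02Gene22223, within 33.7 kb on scaffold 14, had log2 fold changes of 8.31 and 4.91. The heat shock cognate protein PH02Gene00168 moved the other way and had 252, 249 and 250 FPKM in LT25d, against 442, 1350 and 1140 FPKM in CK (log2 fold change -2.27 ± 0.37, adjusted p = 8.05e-05). Against RT25d, 59 of the 102 members were higher and 4 were lower, and 21 of the 24 small heat shock proteins were higher. PH02Gene00168 itself was above RT25d (log2 fold change 1.61, adjusted p = 0.00156).

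The heat stress transcription factors, which bind heat shock elements, gave 8 higher and 4 lower genes of 34, in a list drawn up after the values were seen. PH02Gene29649, matched to the A-3 factor, had 19.6, 20.4 and 20.5 FPKM in LT25d, against 111, 425 and 250 FPKM in CK (log2 fold change -4.02 ± 0.38, adjusted p = 2.96e-07). The other A-3 match, PH02Gene05710, had 0, 0.0658 and 0.14 FPKM in LT25d, against 7.91, 31.4 and 12.8 FPKM in CK (log2 fold change -8.23 ± 0.80, adjusted p = 4.15e-07). The pair differed against RT25d: PH02Gene05710 was lower in LT25d (log2 fold change -3.94, adjusted p = 0.000325), while PH02Gene29649 did not pass (log2 fold change 0.80, adjusted p = 0.0595).

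Genes of soluble sugars changed in both directions. Of 86 members of the sucrose, raffinose and trehalose list 15 were higher and 24 lower (22 and 16 with scaling by library size). The largest rise among those named was PH02Gene50233, a trehalose-phosphate phosphatase, which removes phosphate from the signal sugar trehalose 6-phosphate, and it had 288, 283 and 268 FPKM in LT25d, against 14.8, 2.36 and 3.09 FPKM in CK (log2 fold change 5.20 ± 0.67, adjusted p = 7.4e-06). PH02Gene48920, a galactinol-sucrose galactosyltransferase, the enzyme that makes raffinose, had 52.6, 51.6 and 47.6 FPKM in LT25d, against 1.06, 6.63 and 4.43 FPKM in CK (log2 fold change 3.32 ± 0.55, adjusted p = 9.79e-05). PH02Gene05689, a vacuolar invertase, which splits sucrose inside the vacuole, had 22, 22 and 19.6 FPKM in LT25d, against 5.74, 2.52 and 1.19 FPKM in CK (log2 fold change 2.54 ± 0.44, adjusted p = 0.000146). All 3 were also above RT25d, with log2 fold changes of 3.70, 3.19 and 5.24. The invertase had been far higher at day 15, at 362 ± 8.48 FPKM (log2 fold change -4.49, adjusted p = 6.74e-07).

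Other members of the same enzyme families fell. PH02Gene20325, matched to trehalose-phosphate phosphatase 1, had 3.73, 4.66 and 4.84 FPKM in LT25d, against 29.1, 235 and 169 FPKM in CK (log2 fold change -5.36 ± 0.60, adjusted p = 1.66e-06), and its relative PH02Gene28526 had a log2 fold change of -5.49. PH02Gene06193, a cell wall invertase, which splits sucrose unloaded from the phloem, had 6.89, 7.18 and 7.47 FPKM in LT25d, against 14.6, 273 and 153 FPKM in CK (log2 fold change -4.70 ± 0.96, adjusted p = 0.000583). Against RT25d all 3 genes were instead higher in LT25d, with log2 fold changes of 1.52, 2.07 and 3.05. Of 55 starch genes 3 were higher (5 without CK replicate 1) and 17 lower than CK, but 18 were higher and 6 lower than RT25d. PH02Gene08693, a beta-amylase, which releases maltose from starch, had 85.4, 87.8 and 90.4 FPKM in LT25d, against 49, 21.8 and 28.9 FPKM in CK (log2 fold change 1.19 ± 0.24, adjusted p = 0.000534). In contrast, the chloroplast beta-amylase 1 PH02Gene29292 had 1.22, 1.18 and 1.52 FPKM in LT25d, against 9.37, 17.1 and 6.91 FPKM in CK (log2 fold change -3.38 ± 0.48, adjusted p = 2.17e-05). PH02Gene32126, the soluble starch synthase III1, had 2.49, 2.29 and 2.61 FPKM in LT25d, against 5.2, 23.4 and 25.1 FPKM in CK (log2 fold change -3.17 ± 0.42, adjusted p = 9.47e-06). Among 46 sugar transporters 8 were higher and 9 lower (11 and 8 with scaling by library size). Their shares were 17.4% higher and 19.6% lower, against 11.3% and 17% over all tested genes. The largest named rise was SWEET2a, PH02Gene23178, which had 86.9, 85 and 85.5 FPKM in LT25d, against 4.04, 10.9 and 9.61 FPKM in CK (log2 fold change 3.09 ± 0.54, adjusted p = 0.000149).

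Chitinases, thaumatins and pathogenesis-related proteins, which attack fungal walls or, in some grasses, bind ice, gave 20 higher and 13 lower genes of 81. PH02Gene03004, chitinase 8, had 1930, 1879 and 1960 FPKM in LT25d, against 246, 237 and 197 FPKM in CK (log2 fold change 2.83 ± 0.28, adjusted p = 4.51e-07). PH02Gene38178, pathogenesis-related protein 1, chosen after its values were seen, had 1020, 1021 and 1036 FPKM in LT25d, against 457, 128 and 137 FPKM in CK (log2 fold change 1.91 ± 0.49, adjusted p = 0.00367). PH02Gene04978, an osmotin-like protein of the thaumatin family, had 63, 65.1 and 61.5 FPKM in LT25d, against 0.876, 1.26 and 1.51 FPKM in CK (log2 fold change 5.41 ± 0.65, adjusted p = 3.8e-06). Each of these 3 was also above RT25d, with log2 fold changes of 3.46, 1.83 and 6.47. The class III chitinase PH02Gene05185 rose as well and had 81.7, 78.6 and 77 FPKM in LT25d, against 24.4, 5.04 and 7.72 FPKM in CK (log2 fold change 2.50 ± 0.49, adjusted p = 0.000452). It did not pass against RT25d (log2 fold change -0.25, adjusted p = 0.694). Among those that fell, PH02Gene41357, a pathogenesis-related protein of the STH-21 type, had 1.58, 1.24 and 1.23 FPKM in LT25d, against 34.5, 2.51 and 3.11 FPKM in CK (log2 fold change -3.42 ± 0.77, adjusted p = 0.00134). Of 28 lipid transfer proteins, which carry lipids to the cuticle, 7 were higher and 2 lower. PH02Gene11409 had 16.7, 11.8 and 15.3 FPKM in LT25d, against 0, 0.103 and 0 FPKM in CK (log2 fold change 7.71 ± 0.97, adjusted p = 6.32e-06). PH02Gene23291, a subtilisin-like protease chosen after its values were seen, had 612, 613 and 626 FPKM in LT25d, against 46.4, 20.5 and 28.6 FPKM in CK (log2 fold change 4.06 ± 0.54, adjusted p = 9.58e-06).

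Germin-like proteins and oxalate oxidases, wall proteins of which the oxidases release hydrogen peroxide from oxalate, were higher for 21 and lower for 2 of 35 tested genes, with a median log2 fold change of 2.73. The list was drawn up after the values were seen. PH02Gene23364, germin-like protein 8-7, had 121, 122 and 113 FPKM in LT25d, against 0.306, 0.483 and 0.211 FPKM in CK (log2 fold change 8.16 ± 0.81, adjusted p = 5.06e-07). PH02Gene14898, oxalate oxidase 2, had 24.7, 26.3 and 26.9 FPKM in LT25d, against 0, 1.06 and 0.604 FPKM in CK (log2 fold change 5.22 ± 0.95, adjusted p = 0.000222). Against RT25d only 7 of the 35 were higher and 2 were lower, and PH02Gene14898 averaged 45.8 ± 25.6 FPKM after 1 day at 25 °C, above its level in LT25d. The gene ontology term oxalate metabolic process, which is given to proteins of this kind, held 25 higher and 2 lower of 42 tested genes. Over all tested genes 11.3% were higher and 17% lower.

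Laccases and class III peroxidases, which oxidise phenols and are candidates for the last step of pigment formation, gave calls in both directions. Of the 2 tested polyphenol oxidases, also candidates, 1 was lower, a call that was not stable, as given further below. The share lower was 17.4% for laccases and 16.4% for class III peroxidases, near the 17% over all tested genes. The share higher was 43.5% and 29.5%, against 11.3% over all tested genes. Of 23 laccases, copper oxidases of the cell wall, 10 were higher and 4 lower (2 lower without CK replicate 2), with a median log2 fold change of 1.89. PH02Gene45395, laccase-20-like, had 11.5, 11.6 and 12.9 FPKM in LT25d, against 0.334, 1.96 and 1.41 FPKM in CK (log2 fold change 2.96 ± 0.41, adjusted p = 1.46e-05). Laccase-25-like PH02Gene33834, chosen after its values were seen, had 3.7, 3.2 and 4.34 FPKM in LT25d, against 0.213, 52.7 and 56.5 FPKM in CK (log2 fold change -3.61 ± 1.09, adjusted p = 0.00995). There CK replicate 1 lay below the LT25d libraries while the other 2 lay above. Class III peroxidases, which use hydrogen peroxide to couple phenols, gave 18 higher and 10 lower genes of 61. PH02Gene19591, peroxidase 1-like, had 194, 188 and 197 FPKM in LT25d, against 39.5, 11 and 16.4 FPKM in CK (log2 fold change 2.92 ± 0.32, adjusted p = 1.25e-06). PH02Gene06850, the cationic peroxidase SPC4, had 17.8, 19 and 17.3 FPKM in LT25d, against 0.221, 0.255 and 0.0449 FPKM in CK (log2 fold change 6.38 ± 0.62, adjusted p = 4.03e-07). In contrast, PH02Gene08068, matched to peroxidase 1, had 1.46, 1.06 and 1.03 FPKM in LT25d, against 117, 8.91 and 11.7 FPKM in CK (log2 fold change -5.40 ± 0.73, adjusted p = 1.22e-05). Against RT25d 11 laccases were higher and 3 lower, and 11 peroxidases were higher and 12 lower.

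The route from tryptophan to serotonin was higher than in CK at the decarboxylation step. All 5 tested aromatic-L-amino-acid decarboxylase-like genes, whose enzymes make tryptamine from tryptophan, were higher, with a median log2 fold change of 3.89. This list was drawn up after the values were seen. The wider list of 10 tested genes from tryptophan to melatonin gave 6 higher, with a median of 2.575. PH02Gene42909 had 29.1, 27.4 and 27.2 FPKM in LT25d, against 1.26, 1.14 and 1.66 FPKM in CK (log2 fold change 4.11 ± 0.66, adjusted p = 6.99e-05). PH02Gene26874 had 10.9, 12 and 11.2 FPKM in LT25d, against 1.23, 0.618 and 0.366 FPKM in CK (log2 fold change 3.71 ± 0.69, adjusted p = 0.000269). PH02Gene31517 had 10.1, 10.4 and 9.97 FPKM in LT25d, against 0.991, 1.27 and 0.969 FPKM in CK (log2 fold change 2.96 ± 0.61, adjusted p = 0.000671). The LT25d libraries stood well above all CK libraries in each. PH02Gene26873, which with PH02Gene26874 spans 17.7 kb of scaffold 18, had 4.75, 4.39 and 4.5 FPKM in LT25d, against 0.286, 0.0881 and 0.39 FPKM in CK (log2 fold change 3.89 ± 0.73, adjusted p = 0.000302). PH02Gene42906, on scaffold 22 with PH02Gene42909, was low in both groups and had 0.854, 0.446 and 1.03 FPKM in LT25d, against 0, 0.0651 and 0.02 FPKM in CK (log2 fold change 4.25 ± 1.15, adjusted p = 0.005). Against RT25d edgeR called 0 of the 5, with 0 also at an unadjusted p under 0.05, and for PH02Gene42909 the difference was -0.05 (adjusted p = 0.949) with RT25d at 29.4 ± 27 FPKM. The RT25d libraries spread widely, so this comparison had little precision. After 1 day at 4 °C the gene had averaged 257 ± 2.04 FPKM. In RT25d itself the log2 fold change of PH02Gene42909 over CK was 4.16 (adjusted p = 7.91e-05).

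The other genes of this route gave few calls. PH02Gene11512, a tyrosine decarboxylase, had 6.14, 4.85 and 7.42 FPKM in LT25d, against 1.77, 3.36 and 5.12 FPKM in CK, with overlapping libraries (log2 fold change 0.56 ± 0.47, adjusted p = 0.332). The 2 serotonin N-acetyltransferases, which lead from serotonin towards melatonin, had adjusted p-values under 0.05 but stayed below a fold change of 2 and were not called. Falls this small depend on the scaling: by library size alone the median over all genes was 0.28, in place of -0.05. PH02Gene05544 had 14.9, 16.7 and 16.5 FPKM in LT25d, against 28, 17.7 and 19.9 FPKM in CK (log2 fold change -0.68 ± 0.16, adjusted p = 0.0016). PH02Gene02432 had 9.72, 9.21 and 10.6 FPKM in LT25d, against 13.4, 10.4 and 11.8 FPKM in CK (log2 fold change -0.52 ± 0.15, adjusted p = 0.00946), with overlap. Of the 2 acetylserotonin O-methyltransferases, which make melatonin, PH02Gene42942 had 8.86, 8.26 and 10 FPKM in LT25d, against 4.2, 0.499 and 0.646 FPKM in CK (log2 fold change 2.19 ± 0.83, adjusted p = 0.0353). The call was lost when CK replicate 2 or 3, or any LT25d library, was left out. PH02Gene07987 had 1.08, 0.396 and 1.15 FPKM in LT25d, against 0.483, 0 and 0.225 FPKM in CK, with overlap (log2 fold change 1.70 ± 0.78, adjusted p = 0.0768). No tested gene was described as a tryptamine 5-hydroxylase, the enzyme that makes serotonin from tryptamine, and that step is not analysed here. The study reports that its PnT5H genes were upregulated by low temperature in this RNA-seq. The missing description therefore does not mean that such a gene was missing.

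Tryptophan synthesis, upstream of this route, held rises and falls. Of 19 genes 9 were higher and 4 lower (2 lower without CK replicate 2 or without any 1 LT25d library), with a median log2 fold change of 1.04. PH02Gene15732, tryptophan synthase beta chain 1, which makes tryptophan from indole and serine, had 207, 205 and 208 FPKM in LT25d, against 46.3, 38.2 and 55.6 FPKM in CK (log2 fold change 1.90 ± 0.39, adjusted p = 0.000623). PH02Gene25595, the indole-3-glycerol phosphate synthase, had 47, 46.9 and 45.6 FPKM in LT25d, against 10.9, 5.93 and 7.6 FPKM in CK (log2 fold change 2.28 ± 0.57, adjusted p = 0.00271). At the entry step PH02Gene03475, an anthranilate synthase alpha subunit, had 36.1, 36.7 and 35.3 FPKM in LT25d, against 83.7, 276 and 173 FPKM in CK (log2 fold change -2.62 ± 0.44, adjusted p = 0.000105). Against RT25d 1 gene of the list was higher and 3 were lower. PH02Gene11851 had the highest mean FPKM of all genes in CK through CK replicate 1, while PH02Gene00168 was above it in CK replicates 2 and 3. PH02Gene11851, on scaffold 15 (bases 94741234 to 94743199), a rice match of no stated function that the annotation gives tryptophan synthase activity, had 20.8, 21.9 and 22.1 FPKM in LT25d, against 1650, 833 and 670 FPKM in CK (log2 fold change -5.82 ± 0.70, adjusted p = 4.02e-06). Its neighbour PH02Gene11850, 64.9 kb away and matched to indole-3-glycerol phosphate lyase, an enzyme that releases free indole in maize, had 5.88, 5.03 and 7.07 FPKM in LT25d, against 522, 195 and 179 FPKM in CK (log2 fold change -5.83 ± 0.74, adjusted p = 6.82e-06). It was chosen after its values were seen. Both were also below RT25d, with log2 fold changes of -3.65 and -3.79.

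**Figure D3:**
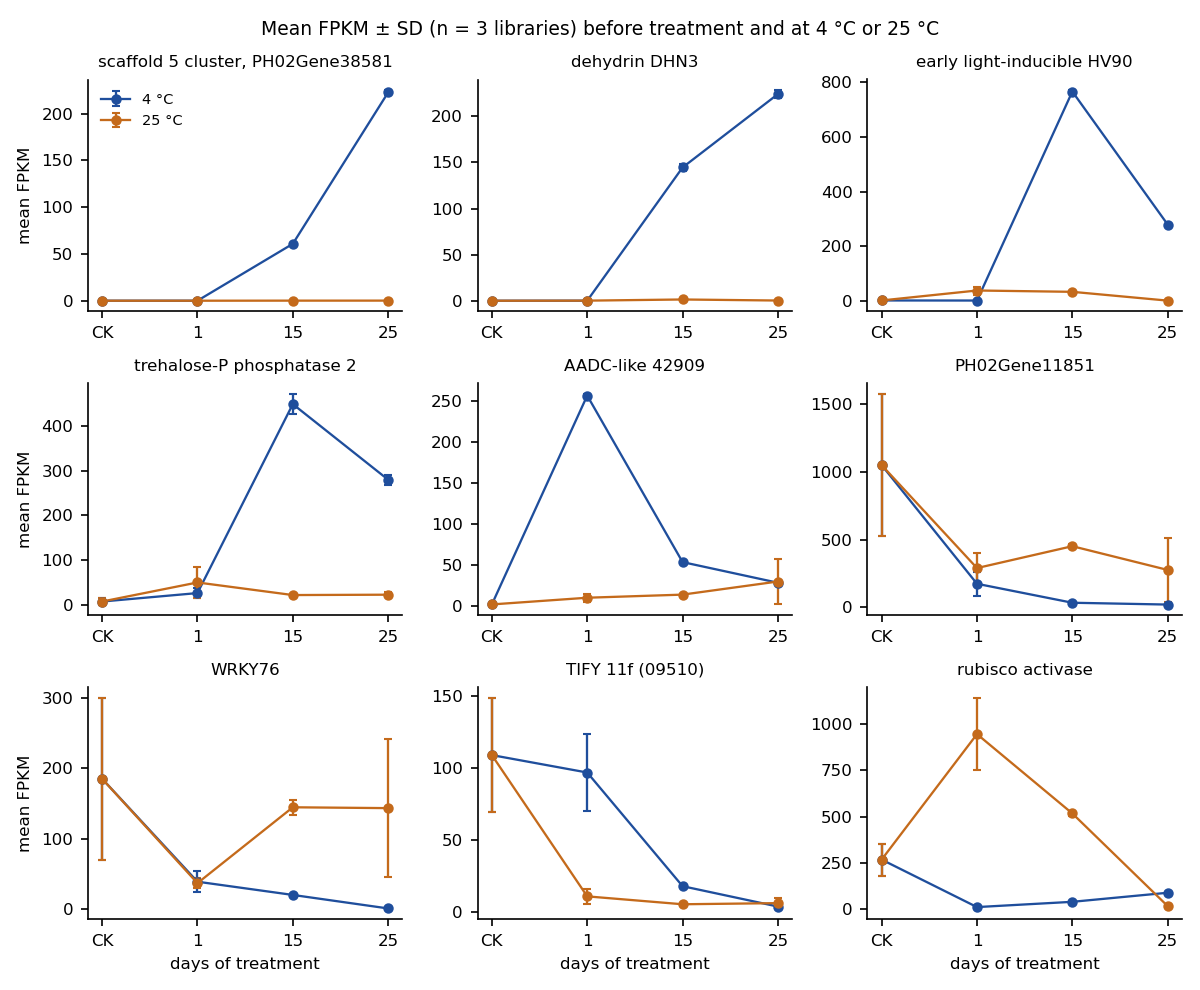
Mean FPKM ± SD (n = 3) of 9 genes over the course, with CK at the left, then 1, 15 and 25 days, and separate lines for 4 °C and 25 °C. Dehydrin DHN3 averaged 224 FPKM in LT25d and 0.215 FPKM in RT25d, while the decarboxylase PH02Gene42909 ended at 27.9 FPKM at 4 °C and 29.4 FPKM at 25 °C.

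Of all lists, the immune receptors held the largest number of falls. Of 269 NLR receptors, intracellular proteins that detect pathogen effectors, 160 were lower and 2 higher than CK, with a median log2 fold change of -1.32. The NLR count was 153 lower without CK replicate 1 and 124 with scaling by library size. PH02Gene35951, matched to RGA3, had 3.19, 3.1 and 3.61 FPKM in LT25d, against 12.5, 20.3 and 26.1 FPKM in CK (log2 fold change -2.85 ± 0.29, adjusted p = 5.81e-07). PH02Gene48888, matched to PIK6-NP, a rice blast resistance protein, had 1.67, 1.85 and 1.73 FPKM in LT25d, against 14.6, 10 and 12.8 FPKM in CK (log2 fold change -3.07 ± 0.17, adjusted p = 1.53e-09). In both genes every LT25d library lay below the lowest CK library, as the naming rule required. In the other direction, PH02Gene30617, an RPP13-like protein, had 22.5, 20.8 and 22.5 FPKM in LT25d, against 0.14, 0.203 and 0.355 FPKM in CK (log2 fold change 6.26 ± 0.35, adjusted p = 1.69e-09). Against RT25d 162 members were lower and 5 higher.

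Wall-associated kinases, receptors that bind pectin at the cell surface, followed with 46 lower and 2 higher of 79 and a median log2 fold change of -1.95. PH02Gene42232 had 0.287, 0.237 and 0.173 FPKM in LT25d, against 120, 8.07 and 9.5 FPKM in CK (log2 fold change -7.73 ± 1.14, adjusted p = 2.92e-05). PH02Gene26659 had 0.0716, 0.0661 and 0.072 FPKM in LT25d, against 53.4, 5.96 and 6.15 FPKM in CK (log2 fold change -8.31 ± 0.98, adjusted p = 3.17e-06). Both are matched to wall-associated receptor kinase 3 and were near 0 in every LT25d library. Against RT25d 41 members were lower and 3 higher. WRKY factors, many of which act in immune signalling, gave 38 lower and 13 higher of 105. PH02Gene06791, matched to WRKY76, on scaffold 18 (bases 44917176 to 44919219), had 0.861, 0.683 and 0.599 FPKM in LT25d, against 316, 140 and 99.7 FPKM in CK (log2 fold change -8.21 ± 0.62, adjusted p = 3.25e-08). PH02Gene03425, WRKY22-like, had 0.198, 0 and 0.136 FPKM in LT25d, against 21.9, 15.8 and 9.62 FPKM in CK (log2 fold change -7.34 ± 0.74, adjusted p = 5.97e-07). Both were also lower than in RT25d, with log2 fold changes of -7.60 and -5.51, and WRKY76 averaged 144 ± 97.8 FPKM there. Among the WRKY genes that rose, PH02Gene33364, matched to WRKY57, had 13.4, 11.4 and 9.59 FPKM in LT25d, against 0.585, 0.85 and 2.92 FPKM in CK (log2 fold change 2.69 ± 0.74, adjusted p = 0.00547). PH02Gene03421, matched to WRKY70, had 21.8, 21.6 and 20 FPKM in LT25d, against 3.36, 3.98 and 6.8 FPKM in CK (log2 fold change 1.90 ± 0.26, adjusted p = 1.29e-05).

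Terpene synthases, which make volatile and defensive terpenes, were lower for 17 and higher for 3 of 36 genes, in a list drawn up after the values were seen. PH02Gene28703, a farnesol or nerolidol synthase, had 116, 119 and 113 FPKM in LT25d, against 686, 422 and 627 FPKM in CK (log2 fold change -2.56 ± 0.40, adjusted p = 5.2e-05). PH02Gene39252, a germacrene D synthase, had 4.17, 3.94 and 4.34 FPKM in LT25d, against 199, 33.6 and 57.3 FPKM in CK (log2 fold change -4.71 ± 0.61, adjusted p = 7.85e-06). Against RT25d 22 were lower and 1 higher, but against LT15d 18 were called higher and 3 lower, with a median log2 fold change of 1.35. PH02Gene40249, another germacrene D synthase, averaged 224 ± 6.28 FPKM in LT25d and 12.4 ± 0.879 FPKM in LT15d (log2 fold change 3.79, adjusted p = 1.77e-07), against 417 ± 91.7 FPKM in CK.

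Of the hormone lists, jasmonate and ethylene changed most, with 43 lower and 6 higher of 79 (3 higher without CK replicate 3) and a median log2 fold change of -1.38. The TIFY proteins, repressors of jasmonate signalling that are themselves made in response to jasmonate, were lower for 18 of 21, and the other 3 did not pass, in a list drawn up after the values were seen. PH02Gene09510, matched to TIFY 11f, had 3.75, 3.55 and 4.73 FPKM in LT25d, against 88.8, 154 and 83.2 FPKM in CK (log2 fold change -5.05 ± 0.48, adjusted p = 3.37e-07). PH02Gene17763, another TIFY 11f match, had 0.787, 1.25 and 1.59 FPKM in LT25d, against 20.2, 64.5 and 32.1 FPKM in CK (log2 fold change -5.31 ± 0.54, adjusted p = 6.49e-07). PH02Gene27185, TIFY 11e-like, was at 0 in all 3 LT25d libraries, against 19.4, 11.9 and 3.52 FPKM in CK and was at least 21.4-fold lower (adjusted p = 3.63e-05). Against RT25d the TIFY list gave 3 higher and 4 lower, and PH02Gene09510 did not pass (log2 fold change -0.64, adjusted p = 0.219). Among the 6 that rose, PH02Gene19170, an allene oxide synthase, the first enzyme committed to jasmonate, had 15.6, 14.7 and 14 FPKM in LT25d, against 4.48, 3.78 and 6.05 FPKM in CK (log2 fold change 1.38 ± 0.27, adjusted p = 0.000427).

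The largest falls among those named were of genes with few or no reads in LT25d. PH02Gene48657, a tyrosine N-monooxygenase, which in sorghum begins the synthesis of a cyanogenic glucoside, was at 0 in all 3 LT25d libraries, against 9.12, 36.5 and 15.2 FPKM in CK and was at least 210-fold lower (adjusted p = 9.02e-06). PH02Gene28806, an anthranilate O-methyltransferase, which makes the volatile methyl anthranilate in maize, was at 0 in all 3 LT25d libraries, against 8.85, 16.5 and 14.2 FPKM in CK and was at least 82.6-fold lower (adjusted p = 2.04e-08). PH02Gene37227, a phospholipase A1 that in rice acts early in jasmonate synthesis, was at 0 in all 3 LT25d libraries, against 3.01, 20.2 and 7.84 FPKM in CK and was at least 116-fold lower (adjusted p = 0.00014). PH02Gene19159, a precursor of phytosulfokine, a growth-promoting peptide, was at 0 in 2 of the 3 LT25d libraries. It had 0.124, 0 and 0 FPKM in LT25d, against 23.3, 172 and 132 FPKM in CK (log2 fold change -11.47 ± 1.18, adjusted p = 7.88e-07). In all, 123 genes called lower had no read in any LT25d library, and 79 called higher had none in any CK library.

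Abscisic acid genes were split, with 6 higher and 6 lower of 25. PH02Gene40492, the 9-cis-epoxycarotenoid dioxygenase NCED3, the rate-limiting enzyme of abscisic acid synthesis, had 2.42, 2.62 and 2.51 FPKM in LT25d, against 47.6, 22.4 and 11.4 FPKM in CK (log2 fold change -3.64 ± 0.65, adjusted p = 0.00018). PH02Gene27952, an abscisic acid 8'-hydroxylase, which inactivates the hormone, had 59.7, 62.5 and 62.6 FPKM in LT25d, against 2.43, 19.4 and 13.7 FPKM in CK (log2 fold change 2.05 ± 0.63, adjusted p = 0.0108). Its relative PH02Gene03757 had 2.64, 3.16 and 3.08 FPKM in LT25d, against 45.3, 5.64 and 8.82 FPKM in CK (log2 fold change -2.90 ± 0.57, adjusted p = 0.000395). Against RT25d both PH02Gene40492 (log2 fold change 1.68, adjusted p = 0.0386) and PH02Gene27952 (log2 fold change 6.89, adjusted p = 2.75e-06) were higher in LT25d. AP2/ERF factors gave 25 lower and 5 higher of 72 (2 or 3 higher in 4 of the 6 leave-one-out fits). Against RT25d 19 of these factors were higher and 10 lower. PH02Gene16920, ERF053, had 2.58, 2.44 and 2.43 FPKM in LT25d, against 62.1, 79.8 and 52.7 FPKM in CK (log2 fold change -4.98 ± 0.69, adjusted p = 1.64e-05) but was above RT25d (log2 fold change 4.24, adjusted p = 0.00043). PH02Gene08579, ERF060, had 10.4, 8.97 and 9.15 FPKM in LT25d, against 94.1, 62.2 and 64.3 FPKM in CK (log2 fold change -3.19 ± 0.23, adjusted p = 1.74e-08) and was below RT25d (log2 fold change -2.80, adjusted p = 4.48e-08). Both factors fell against CK, and they stood on opposite sides of RT25d.

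Among bHLH factors, 19 were lower and 8 higher of 63. The adjacent bHLH35-like genes PH02Gene12145 and PH02Gene12146 on scaffold 24 had log2 fold changes of -6.79 and -6.30. PH02Gene12145 had 0.326, 0.292 and 0.921 FPKM in LT25d, against 35.8, 70.1 and 34.6 FPKM in CK (log2 fold change -6.79 ± 0.46, adjusted p = 9.43e-09). PH02Gene39864, matched to bHLH107, was the largest named rise and had 84.1, 85.2 and 78.7 FPKM in LT25d, against 13.3, 9.53 and 12.8 FPKM in CK (log2 fold change 2.56 ± 0.25, adjusted p = 4.79e-07). NAC factors, many of them regulators of senescence and wall formation, were lower for 28 and higher for 9 of 91. Their largest named rise was PH02Gene46177, matched to NAC92, which had 42, 40.6 and 43.8 FPKM in LT25d, against 7.48, 2.87 and 3.93 FPKM in CK (log2 fold change 2.93 ± 0.23, adjusted p = 5.79e-08). MYB factors gave 23 lower and 15 higher of 118, a split that turned to 15 lower and 23 higher with scaling by library size. Their shares of 19.5% lower and 12.7% higher were near the 17% and 11.3% over all tested genes. PH02Gene50223, a Myb-related protein 306, had 8.88, 8.52 and 7.51 FPKM in LT25d, against 162, 33.5 and 40.3 FPKM in CK (log2 fold change -3.41 ± 0.53, adjusted p = 4.58e-05).

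**Figure D4:**
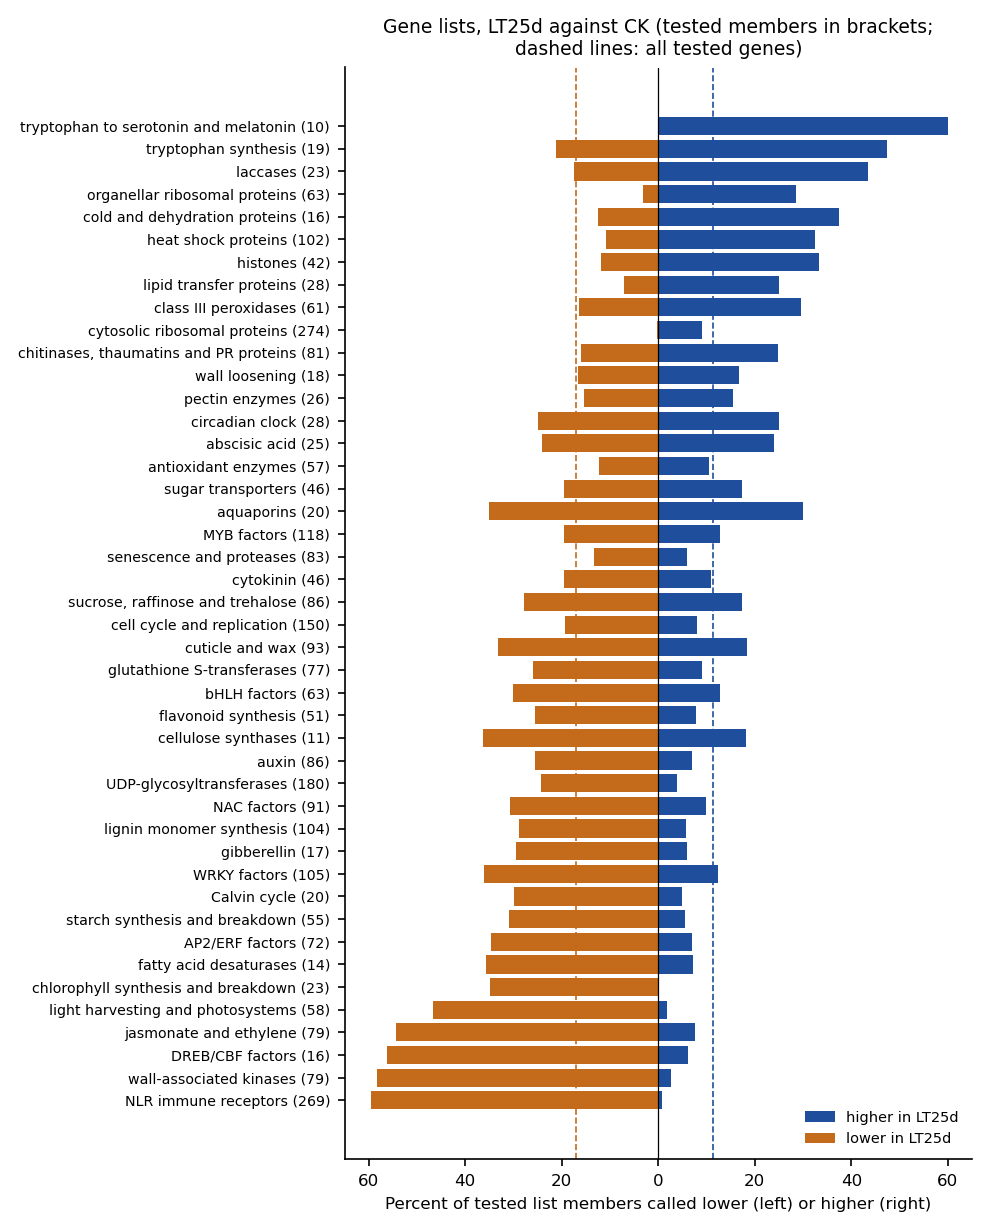
Percent of tested members called higher and lower in LT25d than in CK for each gene list with at least 10 tested members. Dashed lines mark the shares over all 29913 tested genes (11.3% higher, 17% lower). NLR receptors and wall-associated kinases reach far past the line on the lower side.

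Of 58 light harvesting and photosystem genes 27 were lower and 1 higher (2 or 3 higher without CK replicate 2, CK replicate 3 or LT25d replicate 2), with a median log2 fold change of -0.95. Against RT25d 14 were higher and 5 lower. PH02Gene32429, a chlorophyll a-b binding protein of photosystem II, had 4.56, 4.87 and 4.4 FPKM in LT25d, against 23, 66.7 and 58.2 FPKM in CK (log2 fold change -3.72 ± 0.47, adjusted p = 5.83e-06). It was above RT25d (log2 fold change 2.18, adjusted p = 0.000956). PH02Gene18719, rubisco activase, which keeps the carbon-fixing enzyme active, had 91.4, 86.8 and 90.7 FPKM in LT25d, against 186, 262 and 358 FPKM in CK (log2 fold change -1.86 ± 0.42, adjusted p = 0.00148). It too was above RT25d (log2 fold change 2.40, adjusted p = 0.000245). The 10 kDa polypeptide of photosystem II differed. PH02Gene09620 had 1.16, 1.41 and 1.76 FPKM in LT25d, against 172, 30.7 and 44.7 FPKM in CK (log2 fold change -5.99 ± 0.74, adjusted p = 5.01e-06). It was below RT25d (log2 fold change -3.50, adjusted p = 0.000436), though above LT15d (log2 fold change 4.86, adjusted p = 0.00188). The Calvin cycle list gave 6 lower and 1 higher of 20. Against RT25d it gave 4 higher and 0 lower, with 1 lower at an unadjusted p under 0.05. Chlorophyll synthesis and breakdown gave 8 lower and 0 higher of 23 by edgeR. In that list 2 were higher at an unadjusted p under 0.05 and 0 by DESeq2, 0 and 2 by limma with a pseudocount of 1 and 0.1, and 3 with scaling by library size. The higher count was 1 without CK replicate 1 or LT25d replicate 1, and 2 without CK replicate 3. In that list PH02Gene14878, glutamyl-tRNA reductase, which begins chlorophyll synthesis, had 18.3, 20.4 and 18 FPKM in LT25d, against 36.1, 105 and 63.1 FPKM in CK (log2 fold change -2.16 ± 0.28, adjusted p = 8.23e-06).

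The 29 marker genes for leaf-type green cells moved the same way: their summed level was 425 to 428 FPKM in LT25d and 983 to 1647 FPKM in CK. They counted 17 lower and 1 higher among the 25 tested and 1 of the 29 at 0 in all 6 libraries. Most of these markers are themselves photosynthesis genes. Of the other marker lists, dividing cells summed to 156 to 173 FPKM in LT25d and 54.9 to 101 FPKM in CK, with 2 higher and 6 lower of 17 tested (4 and 4 without CK replicate 1). Secondary wall cells summed to 31.4 to 33.2 FPKM in LT25d and 10.1 to 67.5 FPKM in CK, and phloem to 26.4 to 28.0 FPKM in LT25d and 18.1 to 27.4 FPKM in CK. Of the secondary wall markers 4 were higher and 4 lower of 12 tested. Epidermis and cuticle markers summed to 931 to 946 FPKM in LT25d and 772 to 1309 FPKM in CK, with 6 higher and 20 lower of 41 tested. The part of cell makeup in the photosynthesis result was not tested.

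Antioxidant enzymes were divided, with 6 higher and 7 lower of 57 (11 lower without CK replicate 1, and 14 higher and 4 lower with scaling by library size). Their shares of 10.5% higher and 12.3% lower were no larger than the 11.3% and 17% over all tested genes. PH02Gene09555, a manganese superoxide dismutase of the mitochondrial type, which turns superoxide into hydrogen peroxide, had 154, 155 and 152 FPKM in LT25d, against 50.4, 31.8 and 41.8 FPKM in CK (log2 fold change 1.66 ± 0.12, adjusted p = 1.6e-08). PH02Gene37656, the chloroplast copper-zinc form, had 8.7, 7.86 and 8.13 FPKM in LT25d, against 18.4, 19.4 and 21.1 FPKM in CK (log2 fold change -1.52 ± 0.18, adjusted p = 3.11e-06). Glutathione S-transferases, which attach glutathione to toxic molecules, gave 20 lower and 7 higher of 77. PH02Gene37875, GSTU8-like, had 14.4, 15.6 and 15.3 FPKM in LT25d, against 0.159, 0.361 and 0.291 FPKM in CK (log2 fold change 5.44 ± 0.86, adjusted p = 6.15e-05). PH02Gene22557, GSTU6, had 4.06, 3.44 and 5.59 FPKM in LT25d, against 18.9, 14 and 10.9 FPKM in CK (log2 fold change -1.98 ± 0.24, adjusted p = 4.44e-06).

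Of 104 lignin monomer synthesis genes 30 were lower and 6 higher, and 39 were lower and 10 higher against RT25d. PH02Gene49901, a cinnamyl alcohol dehydrogenase, which makes the lignin alcohols, had 0.806, 0.741 and 0.754 FPKM in LT25d, against 30.2, 11.9 and 16.5 FPKM in CK (log2 fold change -4.87 ± 0.39, adjusted p = 5.17e-08). PH02Gene04803, a cinnamoyl-CoA reductase, which acts just before it, had 0.419, 0.522 and 0.925 FPKM in LT25d, against 22.9, 21.2 and 14 FPKM in CK (log2 fold change -5.20 ± 0.29, adjusted p = 1.66e-09). The 3 named rises of the list were all cinnamate 4-hydroxylases, an early step shared with flavonoids. PH02Gene03697 had 54.8, 48.6 and 55.3 FPKM in LT25d, against 4.6, 18.1 and 16.5 FPKM in CK (log2 fold change 1.71 ± 0.41, adjusted p = 0.00204). PH02Gene03697 did not pass against RT25d (log2 fold change 0.28, adjusted p = 0.591). Flavonoid synthesis gave 13 lower and 4 higher of 51. PH02Gene22585, a flavanone 3-dioxygenase, had 3.86, 4.53 and 4.27 FPKM in LT25d, against 39.6, 22.2 and 18.8 FPKM in CK (log2 fold change -2.89 ± 0.54, adjusted p = 0.000281). UDP-glycosyltransferases, which attach sugars to small molecules, were lower for 44 and higher for 7 of 180. PH02Gene29098, UGT73C5-like, had 2, 1.46 and 1.4 FPKM in LT25d, against 3.17, 38.2 and 44.9 FPKM in CK (log2 fold change -4.47 ± 0.62, adjusted p = 1.69e-05).

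Lipid genes fell and rose side by side. Of 14 fatty acid desaturases 5 were lower and 1 higher. PH02Gene00068, the omega-3 desaturase of the endoplasmic reticulum, which makes linolenic acid for membranes, had 47, 45 and 47 FPKM in LT25d, against 371, 1010 and 529 FPKM in CK (log2 fold change -4.09 ± 0.47, adjusted p = 2.38e-06). It did not pass against RT25d (log2 fold change 0.43, adjusted p = 0.425). PH02Gene44250, DES3-like, had 2.18, 2.33 and 2.42 FPKM in LT25d, against 200, 28 and 28.4 FPKM in CK (log2 fold change -5.35 ± 0.64, adjusted p = 3.76e-06) and was lower than in RT25d (log2 fold change -3.23, adjusted p = 0.000262). PH02Gene30788, a delta(8) desaturase, which acts on sphingolipids, rose and had 75, 72.2 and 76.8 FPKM in LT25d, against 14, 26.5 and 19 FPKM in CK (log2 fold change 1.62 ± 0.25, adjusted p = 4.94e-05). Cuticle and wax genes gave 31 lower and 17 higher of 93, which became 20 lower and 28 higher with scaling by library size. Against RT25d 34 were higher and 16 lower. Within this list the 3-ketoacyl-CoA synthases, which lengthen fatty acids for wax, went both ways. PH02Gene27712 had 0.235, 0.76 and 0.896 FPKM in LT25d, against 118, 8.67 and 7.72 FPKM in CK (log2 fold change -6.24 ± 0.94, adjusted p = 3.65e-05). PH02Gene44899 had 43.5, 38.5 and 43.5 FPKM in LT25d, against 0.333, 4 and 4.2 FPKM in CK (log2 fold change 3.55 ± 0.64, adjusted p = 0.000208).

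Genes of growth gave calls in both directions. Of 42 histone genes, most of which are made during DNA replication, 14 were higher and 5 lower (2 lower without CK replicate 1, 3 without LT25d replicate 3). PH02Gene37025, histone H4, had 84.4, 74.8 and 72.5 FPKM in LT25d, against 13, 4.04 and 5.98 FPKM in CK (log2 fold change 3.12 ± 0.32, adjusted p = 7.8e-07) and did not pass against RT25d (log2 fold change -0.02, adjusted p = 0.962). Cell cycle and replication genes gave 12 higher and 29 lower of 150, and 26 higher and 19 lower with scaling by library size. Their shares of 8.0% higher and 19.3% lower were near the 11.3% and 17% over all tested genes. PH02Gene11340, cyclin-dependent kinase G-2, had 16.3, 17.6 and 16.1 FPKM in LT25d, against 43.8, 74 and 59.9 FPKM in CK (log2 fold change -2.12 ± 0.18, adjusted p = 1.28e-07). The dividing-cell markers include histone H4 genes, PH02Gene37025 among them, so they share members with the histone list. These markers were higher in sum in LT25d than in CK, though 2 were higher and 6 lower of 17 tested, as given above. The part of dividing cells in the histone result was not tested. Cytosolic ribosomal proteins were higher for 25 and lower for 1 of 274, a share of 9.12% higher against 11.3% over all tested genes. The higher count was 44 without CK replicate 1, 16 without CK replicate 2 or 3, and 55 with scaling by library size. Organellar ribosomal proteins were higher for 18 and lower for 2 of 63. PH02Gene00898, 50S protein L11, had 16.9, 16.6 and 15.6 FPKM in LT25d, against 2.27, 2.69 and 3.32 FPKM in CK (log2 fold change 2.30 ± 0.39, adjusted p = 0.000125).

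Auxin genes gave 22 lower and 6 higher of 86, and PH02Gene26638, the repressor IAA17, had 8.81, 9.37 and 9.42 FPKM in LT25d, against 86.5, 29.9 and 36.8 FPKM in CK (log2 fold change -2.67 ± 0.29, adjusted p = 1.34e-06). Gibberellin genes gave 5 lower and 1 higher of 17 (9 lower without CK replicate 1). The gene that rose was PH02Gene36729, a gibberellin 2-beta-dioxygenase, which inactivates the growth hormone, and it had 9.82, 12.5 and 13.8 FPKM in LT25d, against 0.0675, 0.772 and 0.825 FPKM in CK (log2 fold change 4.13 ± 0.69, adjusted p = 9.7e-05). It was nevertheless far below RT25d (log2 fold change -4.07, adjusted p = 5.42e-05), where it averaged 210 ± 158 FPKM. Cytokinin genes gave 9 lower and 5 higher of 46 (4 lower and 8 higher with scaling by library size). Their shares of 19.6% lower and 10.9% higher were near the 17% and 11.3% over all tested genes. PH02Gene35550, an activating cytokinin phosphoribohydrolase, had 3.51, 3.22 and 3.45 FPKM in LT25d, against 20.8, 125 and 134 FPKM in CK (log2 fold change -5.09 ± 0.60, adjusted p = 3.15e-06). Of 28 circadian clock genes 7 were higher (4 without CK replicate 2) and 7 lower. PH02Gene29623, GIGANTEA, which times growth to the day, had 47.1, 47.6 and 49.1 FPKM in LT25d, against 83.6, 158 and 153 FPKM in CK (log2 fold change -1.75 ± 0.21, adjusted p = 4.55e-06).

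Aquaporins, the water channels of membranes, gave 6 higher and 7 lower of 20 (7 and 4 with scaling by library size). PH02Gene11024, a TIP1-1 of the vacuole membrane, had 245, 228 and 240 FPKM in LT25d, against 72.7, 32.6 and 46.8 FPKM in CK (log2 fold change 2.01 ± 0.27, adjusted p = 1.1e-05). PH02Gene34465, matched to TIP1-2, had 7.94, 7.62 and 7.27 FPKM in LT25d, against 33.2, 198 and 160 FPKM in CK (log2 fold change -4.42 ± 0.88, adjusted p = 0.00046). It was above RT25d (log2 fold change 6.32, adjusted p = 0.000261), where it averaged 0.0897 ± 0.0831 FPKM. Pectin enzymes gave 4 higher (7 without CK replicate 1) and 4 lower of 26. Wall loosening genes gave 3 higher and 3 lower of 18 (5 lower without CK replicate 1, 1 without CK replicate 2), and cellulose synthases 2 higher (1 without CK replicate 1 or LT25d replicate 2) and 4 lower of 11. The share in each direction was 15.4% for pectin enzymes and 16.7% for wall loosening genes. Over all tested genes it was 11.3% higher and 17% lower. Senescence genes and proteases gave 5 higher and 11 lower of 83 (11 and 9 with scaling by library size). Their shares of 6.02% higher and 13.3% lower were below the 11.3% and 17% over all tested genes. The 3 alternative oxidases, which bypass part of the respiratory chain, gave 0 calls in either direction by edgeR and by DESeq2, with 2 higher and 1 lower at an unadjusted p under 0.05 and 2 higher by limma or with scaling by library size. Without CK replicate 1 they gave 1 higher and 1 lower, and without CK replicate 2 or LT25d replicate 3 they gave 1 higher. Of the 2 tested polyphenol oxidases 1 was lower, a call lost without CK replicate 3 or any 1 LT25d library. Against RT25d 1 of the 2 was higher.

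Of the KEGG pathways with at least 20 tested genes, the antenna proteins of photosynthesis had the largest share of lower genes, 19 of 29. Plant-pathogen interaction gave 277 lower and 51 higher of 688, and alpha-linolenic acid metabolism, the source of jasmonate, had 37 lower and 7 higher of 87. Fatty acid elongation gave 23 lower and 4 higher of 58. Against RT25d antenna proteins gave 8 higher and 1 lower, and fatty acid elongation 16 higher and 11 lower. Plant-pathogen interaction gave 68 higher and 249 lower against RT25d, and alpha-linolenic acid metabolism 5 higher and 14 lower. On the higher side, indole alkaloid biosynthesis had the largest share of higher genes, with 12 higher and 8 lower of 45. Stilbenoid, diarylheptanoid and gingerol biosynthesis came next, with 15 higher and 20 lower of 58 (18 and 15 with scaling by library size). Below these, RNA polymerase gave 19 higher and 4 lower of 86. Ribosome biogenesis gave 41 higher and 8 lower of 206 (63 higher without CK replicate 1, 24 without CK replicate 2). Phenylpropanoid synthesis, with 53 higher and 72 lower of 273 (68 and 56 with scaling by library size), and tryptophan metabolism, with 11 higher and 23 lower of 91, held genes of both directions. Over all 10657 genes with a pathway, 10.6% were higher and 17.6% lower, and 1183 were higher and 1425 lower against RT25d. Ribosome biogenesis gave 4 higher and 14 lower against RT25d, and RNA polymerase 7 higher and 6 lower. Among gene ontology terms, response to cold had 47 higher and 94 lower genes of 341, and defense response had 69 higher and 304 lower of 733. Over all tested genes 11.3% were higher and 17% lower. The share over genes with a gene ontology term is not given here. Terms are listed here as counts, and no enrichment was tested.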

How the data were processed

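Total RNA of culms was sequenced in pairs of reads, and the labels describe a SMARTer amplification of the cDNA. The authors mapped the reads to the moso bamboo genome with HISAT2 and assembled transcripts with StringTie, and they deposited FPKM values, calculated with ballgown, and estimated counts per gene in 1 table. The sources used here do not give how the counts were made or whether strand was used. The deposited estimated counts were whole numbers. Above 0 the most frequent one was 4, which was assumed to be what 1 read pair gives, so that 3 read pairs make 12 counts. Counts of 1, 2 and 3 also occurred, in 612, 1452 and 2146 values of the 6 libraries, against 3995 values of 4. The assumption was not tested. All per-sample columns for the 21 libraries were read, and no column of the authors' comparisons was used.

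Genes with at least 1 FPKM in at least 3 libraries were tested with edgeR 4.0.16 (TMM scaling, quasi-likelihood fit of all 7 groups, no covariate, R 4.3.3). Calls needed a Benjamini-Hochberg adjusted p up to 0.05 and a log2 fold change of 1 or more in either direction. Standard errors were derived from the fold change and the F statistic, and the SD is given over n = 3 libraries. The scripts were tested on simulated data. DESeq2 1.42.0, limma 3.58.1 and other filters and scalings served as alternatives. Gene lists were formed from words in the deposited descriptions. Named genes were, per list, up to 3 rises and 3 falls that were largest among genes called with all libraries and without CK replicate 1, with no overlap and a mean of at least 10 FPKM in the higher group, then the 5 largest rises and falls of all genes, the most abundant gene of each group and every tested gene from tryptophan to melatonin. Others are said to be chosen after their values were seen. Members and lists were chosen with earlier results of these data known.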

Additional observations from a re-analysis of the deposited data

Results flagged for a closer look

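In 287 genes the call against CK had one direction after 15 days at 4 °C and the opposite direction after 25 days, with a called difference between the 2 times. Of the genes named by the rule 4 were among them, and the value given is the log2 fold change, LT25d over LT15d (edgeR, adjusted over all tested genes). PH02Gene25137, histone H2AXa, was above CK at day 25 and below it at day 15, with a difference of 2.46. PH02Gene28785, the sugar transport protein 14, did the same with a difference of 2.35, and so did PH02Gene48613, matched to WRKY75, with 2.89. PH02Gene41930, the chloroplast 2-Cys peroxiredoxin BAS1, which removes peroxides, was below CK at day 25 and above it at day 15, with a difference of -2.99.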

How the results depend on the processing

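No fold change of a named gene reversed under the alternatives run. With scaling by library size the balance of higher and lower calls turned over all genes and in the lists of MYB factors, cuticle and wax, cell cycle, cytokinin, aquaporins, antioxidant enzymes, sugar transporters, senescence, and sucrose, raffinose and trehalose, and with limma it turned over all genes. The 3395 higher and 5073 lower genes became 3421 and 2493 with limma on log2(FPKM + 1), 5430 and 3444 with a pseudocount of 0.1, 1536 and 2660 with a mean of at least 5 FPKM, which tests fewer genes, and 5625 and 3551 with scaling by library size. They stayed within 1.5 times with DESeq2 (3511 and 5232), no filter (3732 and 5541), median-of-ratios scaling (3374 and 5096), the 6 libraries alone (2976 and 4367), the LT25d libraries summed to 1 (2633 and 3465) and counts divided by 4 (3517 and 5180). Leaving out 1 library in turn gave 3059 to 4144 higher and 4659 to 5537 lower genes. A replicate block gave 3439 and 4897. Libraries with the same number did not deviate together (correlations of -0.006, -0.014 and -0.004). With so small a spread in LT25d, this cannot decide whether the numbers pair the samples. DESeq2 kept 99.2% of the higher and 99.5% of the lower calls, limma on log2(FPKM + 1) kept 76.1% and 48.9%, and the summed LT25d libraries 76.5% and 68.3%. List counts of 1 or 2 genes changed to 0, 1, 2 or 3 in some leave-one-out fits, as for the higher NLR receptors and wall-associated kinases, the lower germin-like proteins and the lower ribosomal proteins. The cause of these shifts was not tested. If 1 read pair gives 4 counts, the spread of LT25d was close to that of counting. The chi-square per degree of freedom was then 1.5 to 1.56, after division of the counts by 4. With fewer counts per read pair it would be larger. Separate plants may vary more than these p-values allow for.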
